A study of Mus musculus with 12 samples.

Results

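The genes described here encode the mitochondrial respiratory chain: the subunits of complexes I to IV and of complex V (ATP synthase), from both the nuclear and the mitochondrial genome. They were chosen by name alone, as every gene whose symbol began with mt-Nd, mt-Co, mt-Cy or mt-At, with Nduf followed by a, b, c, s or v, with Uqcr, Cox4 to Cox8 or Atp5, or was Sdha, Sdhb, Sdhc or Sdhd. Of the 55401 genes in the deposited tables, 111 met this rule, after 14 matching names that ended in -ps, the mark of a pseudogene, were left out. The 111 held 85 nuclear genes for subunits (36 of complex I, 4 of complex II, 8 of complex III, 19 of complex IV and 18 of complex V) and 13 mitochondrially encoded genes. The other members were 8 assembly factors of complex I, 4 gene copies (Ndufa11b, Ndufb4c, Ndufs6b and Cox6c2) and Cox7a2l, which takes part in joining complexes into supercomplexes.

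Complexes I and II pass electrons from NADH and from succinate to ubiquinone, complex III passes them on to cytochrome c, and complex IV hands them to oxygen. Complexes I, III and IV pump protons across the inner membrane, and complex V uses the gradient to make ATP. The mitochondrial genome encodes core membrane subunits of every complex but complex II, and all other subunits are made from nuclear genes. In skin, epidermis, hair follicles, adipocytes and the thin striated muscle under the dermis all hold mitochondria, and striated muscle makes its own forms of some complex IV subunits.

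Dorsal skin of C57BL/6J mice was collected on day 29 and its RNA was sequenced in 12 libraries, 3 for each of 4 groups. The groups were mice with no treatment (control), mice put through chronic restraint stress (CRS), mice given imiquimod (IMQ), a Toll-like receptor 7 agonist that induces psoriasis-like skin inflammation, and mice given both (CRS+IMQ). Control and CRS shared a deposited table, as did IMQ and CRS+IMQ, so tests of stress were made within each table. Whether a group's 3 libraries are 3 different mice is not stated in the labels, so p-values measure only the spread between these libraries, which may be technical.

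Values are FPKM, fragments scaled to transcript length and library size, as the authors deposited them. Read totals are not known, and between 13248 and 13753 genes reached 1 FPKM in each library. Stressed libraries lay closer together than the others: the median coefficient of variation of the members was 13.6% in control and 11.2% in IMQ, but 6.20% in CRS and 4.27% in CRS+IMQ. Across all genes tested the same medians were 14.5%, 16.6%, 7.87% and 6.76%. Within the control group, control 3 held the highest value for 90 of the 107 members tested and control 1 the lowest for 84, whereas over all genes tested these libraries held the highest and lowest for 28.5% and 26.5%. Among the IMQ libraries, IMQ 1 was the highest for 78 members and IMQ 2 the lowest for 87, against 28.1% and 29.4% of all genes. In bulk tissue, fewer cells of a type and less RNA per cell cannot be told apart.

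Stress went with higher respiratory chain transcripts in skin without imiquimod and with lower ones in skin with imiquimod. A member was called when its adjusted p was below 0.05 in limma's moderated test on log2(FPKM + 1), with Benjamini-Hochberg adjustment over every gene that reached 1 FPKM in 3 or more of the libraries fitted. In CRS against control, 61 of the 107 members tested were called higher, against 15.3% of all genes tested, and 1 was called lower, against 28.4%. In CRS+IMQ against IMQ, 1 member was called higher, against 18.7% of all genes, and 65 were called lower, against 18.2%. The median log2 change was 0.47 for the members and -0.09 for all genes in the first comparison, and -0.42 and -0.07 in the second.

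The change with stress itself differed between the imiquimod backgrounds for most members. In limma's interaction test over all 12 libraries, which subtracts the change in CRS from the change in CRS+IMQ, 85 of 107 members were called lower, against 21.2% of all genes, and 2 were called higher, against 28.1%. Altogether 43 members rose with stress without imiquimod, fell with stress on imiquimod and passed the interaction test downward. A further 20 fell only by the test on imiquimod and passed the interaction test, 16 rose only by the test without imiquimod and passed it, and 16 passed none of the 3 tests. Ndufa4l2 alone took the opposite course in all 3 tests. The 4 members not tested, Cox7b2, Cox8c, Ndufa11b and a second locus named Atp5o, were listed at 0 in all 12 libraries.

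Other ways of counting gave the same order of directions, but by the authors' q-value the fall on imiquimod was near the share of all genes. The 3 CRS libraries all lay above the 3 control libraries for 84 members, against 22.2% of all genes, and all below for 3, against 36.0%. All CRS+IMQ libraries lay above all IMQ libraries for 1 member, against 24.7% of all genes, and below them for 74, against 29.3%. By the q-value of the authors' deposited table, 70 members were higher in CRS, against 14.2% of all genes, and 1 was lower, against 18.4%. For CRS+IMQ the authors' deposited table called 2 members higher, against 17.2% of all genes. It called 13 lower, which is 12.1% of the members tested and near the 10.2% of all genes, and far fewer than the 65 of limma.

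Other scalings moved the split of all genes, and the members kept their direction by count. Quantile normalization called 3710 of all genes higher and 2886 lower in CRS, against 2131 and 3955 on the deposited scale, and median-ratio scaling 2776 and 3375. The members called higher in CRS were 82 and 78 under these scalings, and those called lower in CRS+IMQ 69 and 39. Of all genes, 2958 and 2150 were then called lower in CRS+IMQ, against 2544 on the deposited scale. Of the 13 mitochondrially encoded genes, quantile normalization called 1 higher in CRS and 3 lower in the interaction. These were smaller shares than those of all genes. For the interaction, quantile normalization called 3519 of all genes higher and 4622 lower, against 4172 and 3153, and 89 members lower.

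The count of members higher in CRS against control moved with single libraries, and so did that of all genes. Without control 3 it was 82 members, without CRS 1, CRS 2 or CRS 3 it was 20, 28 and 16, and without control 2 it was 20. All genes called higher went from 2131 to 2535 without control 3 and to 1384 without control 2. They were 1278, 1298 and 1262 without CRS 1, 2 and 3. Of the 62 called members, 17 were called in every fit that left out 1 library. On imiquimod the count of members lower was 40, 41 and 35 without CRS+IMQ 1, 2 and 3, 37 without IMQ 3 and 82 without IMQ 2. The interaction count of members stayed between 81 and 94. All genes called lower on imiquimod went from 2544 to 1490, 1454 and 1448 without CRS+IMQ 1, 2 and 3. They were 1477 without IMQ 3 and 2836 without IMQ 2. When each stressed group was averaged to 1 sample, most limma calls were lost, among the members and among all genes. The median log2 changes of complexes I to V were then 0.46, 0.51, 0.46, 0.47 and 0.46 in CRS. In CRS+IMQ they were -0.45, -0.55, -0.43, -0.39 and -0.44.

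**Figure D1:**
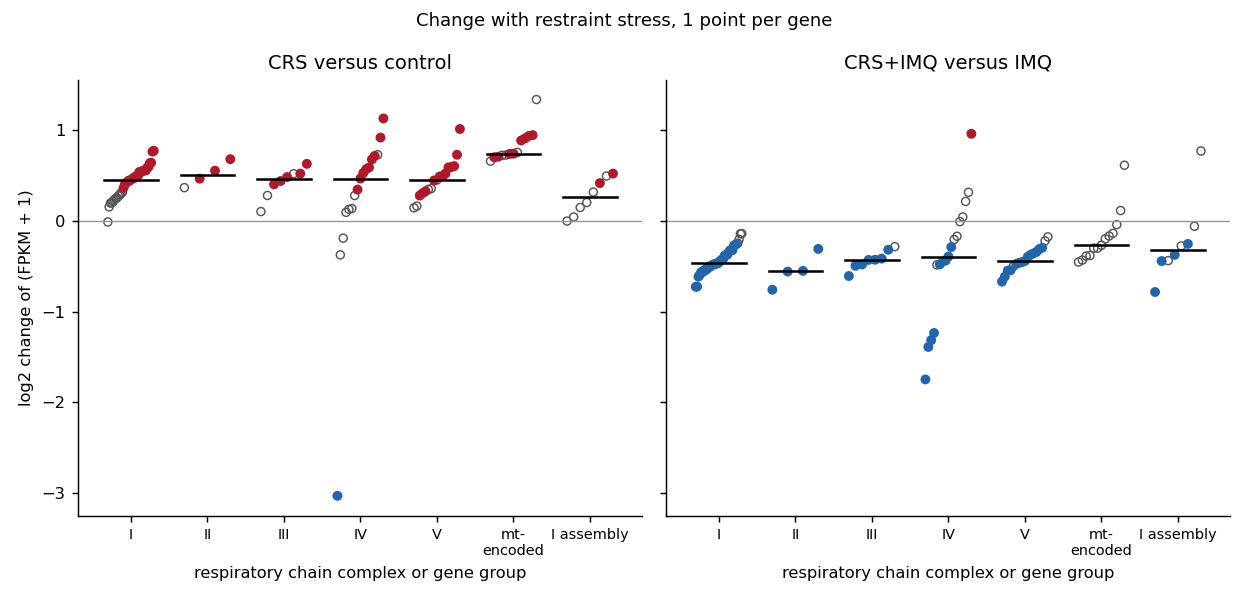
Log2 change of each tested member in CRS against control (left) and in CRS+IMQ against IMQ (right), by complex; filled red points were called higher, filled blue points lower, open points not called, and bars mark the median of each complex. Medians of complexes I to V lie between 0.45 and 0.51 on the left and between -0.55 and -0.39 on the right, and the mitochondrially encoded genes have the highest median on each side, 0.74 and -0.27.

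Complex I, the NADH dehydrogenase, rose in 21 of its 36 nuclear subunits in CRS, with a median log2 change of 0.45, and fell in 26 of 36 in CRS+IMQ, with a median of -0.46; none was called the other way. The interaction was called lower for 32 of 36. For these counts and those by complex or gene group below, 15.3% of all genes were called higher and 28.4% lower in CRS. The shares of all genes were 18.7% and 18.2% in CRS+IMQ, and 28.1% and 21.2% for the interaction. Of the 7 core subunits, which carry the flavin and the iron-sulphur clusters, 6 rose and 6 fell, with medians of 0.56 and -0.56. Among the 29 accessory subunits, which surround that core, 15 rose and 20 fell, with medians of 0.42 and -0.43.

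Ndufs7, a core subunit with an iron-sulphur cluster next to the ubiquinone site, stood at 58.4, 61.7 and 62.1 FPKM in control and at 87.6, 84.1 and 98.4 FPKM in CRS. On imiquimod it stood at 74.3, 67.6 and 76.6 FPKM, and at 46.4, 43.7 and 40.8 FPKM with stress added. The groups did not overlap in either table, and CRS+IMQ held the lowest libraries of all 12. Its log2 change was 0.56 ± 0.09 (SE, limma adjusted p = 0.00483) and -0.73 ± 0.08 (adjusted p = 0.00125), and the interaction was -1.28 ± 0.12 (adjusted p = 1.1e-05).

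Ndufv1, which binds NADH and the flavin, followed the same course with a wider control group: 29.1, 33.5 and 41.7 FPKM in control and 54.3, 50.1 and 53.2 FPKM in CRS. It measured 49.2, 40.1 and 49.2 FPKM in IMQ and 26.7, 27.8 and 28.0 FPKM in CRS+IMQ. Neither table showed overlap. The log2 changes were 0.60 ± 0.14 (limma adjusted p = 0.0158, lost without CRS 1, CRS 3 or control 2) and -0.72 ± 0.10 (adjusted p = 0.00255). Ndufs4, an accessory subunit needed for a stable NADH-binding module, changed by 0.64 ± 0.11 (limma adjusted p = 0.00503) and by -0.56 ± 0.07 (adjusted p = 0.0021). Ndufs3, a core subunit, changed by 0.64 ± 0.11 (limma adjusted p = 0.00473) and by -0.54 ± 0.10 (adjusted p = 0.00874), but 31.1% of its 50-base stretches also occur in the pseudogene Gm12251, so reads may have been split between them.

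Not every subunit of complex I was called. Ndufv3, an accessory subunit of the flavoprotein part, measured 31.7, 31.9 and 33.3 FPKM in control and 32.5, 30.9 and 32.7 FPKM in CRS, and its libraries overlapped. The log2 change was -0.01 (limma adjusted p = 0.909) and turned to 0.21 under quantile normalization, and on imiquimod it was -0.14 (adjusted p = 0.259). Ndufa3, Ndufa7 and Ndufb10, all accessory subunits, also passed none of the 3 tests, although Ndufb10, at 0.31 and -0.45 with an interaction of -0.76 (limma adjusted p = 0.0525), had a value on imiquimod about the size of the complex I median there. Ndufa12, another accessory subunit, had the largest rise of complex I in CRS at 0.77 ± 0.14 (limma adjusted p = 0.00591). Its IMQ libraries were uneven at 43.6, 20.8 and 23.7 FPKM, while the pseudogene Ndufa12-ps, which shares 19.8% of its 50-base stretches, stood at 28.5, 95.2 and 109 FPKM in the same libraries. The lone high value of one thus met the lone low value of the other. In CRS+IMQ it was likewise, with Ndufa12 at 16.5, 17.9 and 25.7 FPKM and the pseudogene at 86.2, 84.9 and 40.8 FPKM. The pseudogene stood at 73.2, 84.1 and 103.7 FPKM in control and 145.6, 141.2 and 152.6 FPKM in CRS. Ndufa12 itself stood at 14.9, 14.8 and 20.7 FPKM in control and 28.5, 29.5 and 29.2 FPKM in CRS. Both were thus higher in CRS, without the opposed single values seen on imiquimod. How reads were split between them is still not known. Its change on imiquimod, -0.48, was not called (limma adjusted p = 0.264).

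Assembly factors of complex I, which help build it without staying in it, rose in 2 of 8 cases in CRS, with a median of 0.26, and fell in 4 of 8 in CRS+IMQ, with a median of -0.32, against 15.3% and 18.2% of all genes. Ndufaf5, which modifies Ndufs7 during assembly, had the following levels: 4.97, 6.03 and 6.99 FPKM in control, 9.33, 8.25 and 9.37 FPKM in CRS, 7.14, 5.85 and 6.18 FPKM in IMQ and 3.06, 3.66 and 3.15 FPKM in CRS+IMQ. Its groups did not overlap within either table, and its log2 changes were 0.52 ± 0.12 (limma adjusted p = 0.0169) and -0.78 ± 0.10 (adjusted p = 0.00218). Without CRS 1, CRS 3 or control 2 the first of these calls was lost.

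Complex II, succinate dehydrogenase, is the only complex made from nuclear genes alone, and it also works in the tricarboxylic acid cycle. Of its 4 genes, 3 rose in CRS and all 4 fell in CRS+IMQ, and all 4 passed the interaction test, with medians of 0.51, -0.55 and -1.01. Sdhb, the iron-sulphur subunit, had 49.6, 61.1 and 87.7 FPKM in control, 103, 98.5 and 110.2 FPKM in CRS, 90.8, 69.0 and 81.8 FPKM in IMQ and 47.7, 46.8 and 46.2 FPKM in CRS+IMQ. CRS lay wholly above control and CRS+IMQ wholly below IMQ, and the control libraries spread the most. The log2 change was 0.68 ± 0.21 (limma adjusted p = 0.039) and -0.76 ± 0.11 (adjusted p = 0.00313), and the interaction was -1.44 (adjusted p = 0.000712).

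Sdha, the flavoprotein that oxidizes succinate, changed by 0.55 ± 0.18 (limma adjusted p = 0.0461) and -0.56 ± 0.09 (adjusted p = 0.00564). The membrane anchors differed slightly from each other: Sdhd rose by 0.47 ± 0.12 (limma adjusted p = 0.0213), whereas Sdhc, at 0.37 ± 0.12, missed the threshold (adjusted p = 0.0508). On imiquimod Sdhc fell by 0.55 ± 0.08 (limma adjusted p = 0.00284) and Sdhd by 0.31 ± 0.10 (adjusted p = 0.0488). The calls of Sdha and Sdhb in CRS were lost without any 1 of the libraries other than control 3, with adjusted p up to 0.127 and 0.114.

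Complex III, the cytochrome bc1 complex, rose in 5 of its 8 nuclear genes in CRS and fell in 7 of 8 in CRS+IMQ, and all 8 passed the interaction test, with medians of 0.46, -0.43 and -0.85. Uqcrc1, a core protein of the matrix side, had 76.6, 83.0 and 88.4 FPKM in control, 126, 123 and 136 FPKM in CRS, 101, 90.5 and 92.7 FPKM in IMQ and 69.2, 65.7 and 66.1 FPKM in CRS+IMQ. Its groups stood well apart in both tables, with a log2 change of 0.63 ± 0.10 (limma adjusted p = 0.00365) that kept its call whichever library was left out, and of -0.49 ± 0.07 (adjusted p = 0.00332). Uqcrfs1, the Rieske iron-sulphur protein that passes electrons on towards cytochrome c, changed by 0.52 ± 0.13 (limma adjusted p = 0.0184) and -0.61 ± 0.11 (adjusted p = 0.00817). Uqcrh, the hinge protein next to the cytochrome c site, had the smallest change of complex III in CRS, 0.10 (limma adjusted p = 0.398), and fell by 0.32 on imiquimod (adjusted p = 0.0381), a call that was lost without IMQ 3 or any of the CRS+IMQ libraries.

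Complex IV, cytochrome c oxidase, was the most mixed of the 5. Of 17 tested nuclear genes 9 rose and 1 fell in CRS, and 1 rose and 8 fell in CRS+IMQ. The interaction was called lower for 9 and higher for 2. Its medians were 0.47, -0.39 and -0.63. The 8 common subunits other than Cox6a1, Cox7a2 and Cox8a, among them Cox4i1, Cox6b1, Cox7b and Ndufa4, rose in 4 cases and fell in 3. Their medians were 0.37 and -0.41. Cox5b, which binds zinc on the matrix side, was the clearest of them: 68.9, 81.6 and 84.7 FPKM in control, 119, 107 and 124 FPKM in CRS, 99.8, 87.8 and 99.6 FPKM in IMQ and 72.0, 73.5 and 72.3 FPKM in CRS+IMQ. No library overlapped with the other group of its table, and the log2 changes were 0.57 ± 0.12 (limma adjusted p = 0.00989) and -0.39 (adjusted p = 0.00952). The pseudogene Cox5b-ps shares 21.8% of its 50-base stretches and stood between 39.1 and 70.0 FPKM, so reads may have been split here too.

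Within complex IV, changes also differed between the members of 3 isoform pairs. Cox6a2, Cox7a1 and Cox8b are the heart and skeletal muscle forms of 3 small subunits, and Cox6a1, Cox7a2 and Cox8a are the forms found in most tissues. In mice Cox7a1 and Cox8b are also abundant in brown fat. Cox6a2 (ENSMUSG00000030785) spans chr7:128205435-128206387, Cox7a1 (ENSMUSG00000074218) chr7:30184144-30186078 and Cox8b (ENSMUSG00000025488) chr7:140898945-140900446 in mm10, so that all 3 muscle forms lie on chromosome 7. Cox6a1 lies at chr5:115345642-115348981, Cox7a2 at chr9:79755361-79759878 and Cox8a at chr19:7215153-7217616. The longest stretch shared by the transcripts of a pair was 12 bases for Cox6a2 and Cox6a1, 12 for Cox7a1 and Cox7a2 and 10 for Cox8b and Cox8a, so the members of a pair can be counted apart.

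Promoter sequences are shown for the isoforms because the members of a pair differed in the size or the direction of their change. Each holds the 250 bases before the RefSeq start on the gene's own strand, 5′ to 3′, from RefSeq for GRCm38.p6. Capitals mark matches on either strand to GCGCANGCG (core of the site of NRF1, a regulator of respiratory chain genes), CAGCTG (an E-box form bound by myogenic factors) or CCGGAA (core of ETS-family sites, which GABP binds). AAGGTCA, to which estrogen-related receptors bind, was also searched. No entry was matched for Cox6a2.
Cox7a1 (chr7:30183921-30184170, plus strand): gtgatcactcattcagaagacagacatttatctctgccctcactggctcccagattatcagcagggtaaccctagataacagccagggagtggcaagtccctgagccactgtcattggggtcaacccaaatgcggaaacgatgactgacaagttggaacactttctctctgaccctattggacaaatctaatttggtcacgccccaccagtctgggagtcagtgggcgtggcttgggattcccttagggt
Cox8b (chr7:140900447-140900696, minus strand): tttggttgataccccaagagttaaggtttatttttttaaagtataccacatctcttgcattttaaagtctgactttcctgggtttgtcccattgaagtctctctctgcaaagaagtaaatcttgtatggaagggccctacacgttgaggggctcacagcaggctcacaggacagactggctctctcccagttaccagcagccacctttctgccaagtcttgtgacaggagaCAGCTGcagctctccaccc
Cox6a1 (chr5:115348959-115349208, minus strand): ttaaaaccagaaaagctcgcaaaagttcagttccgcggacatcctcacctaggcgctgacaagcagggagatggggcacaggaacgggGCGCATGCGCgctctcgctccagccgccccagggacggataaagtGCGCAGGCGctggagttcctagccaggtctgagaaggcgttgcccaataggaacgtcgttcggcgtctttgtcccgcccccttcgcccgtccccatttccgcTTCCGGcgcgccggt
Cox7a2 (chr9:79759854-79760103, minus strand): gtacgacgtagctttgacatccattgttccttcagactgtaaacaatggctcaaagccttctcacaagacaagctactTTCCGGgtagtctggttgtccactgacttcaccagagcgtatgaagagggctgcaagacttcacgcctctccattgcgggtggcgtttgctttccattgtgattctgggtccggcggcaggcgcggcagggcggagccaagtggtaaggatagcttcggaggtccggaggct
Cox8a (chr19:7217617-7217866, minus strand): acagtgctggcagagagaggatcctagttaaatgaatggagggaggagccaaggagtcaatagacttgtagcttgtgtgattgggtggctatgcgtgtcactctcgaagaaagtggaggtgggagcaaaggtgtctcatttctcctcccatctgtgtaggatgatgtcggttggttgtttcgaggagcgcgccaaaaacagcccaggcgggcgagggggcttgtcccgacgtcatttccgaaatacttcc

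The motifs were spread unevenly over these windows. Cox6a1 held GCGCANGCG at -162 and -161 (overlapping matches on the opposite strands) and at -117, counted in bases from the RefSeq start. It also held CCGGAA at -15 on the strand opposite the gene, printed as TTCCGG. Cox8b held CAGCTG at -19, Cox7a2 held CCGGAA on the strand opposite the gene at -172, and Cox7a1 and Cox8a held none of the 4. Over 68 nuclear subunit promoters GCGCANGCG was present in 13 (19.1%), against 5.33% of all 27025 promoters of the same length and 0 of 24 promoters of skeletal muscle marker genes. CCGGAA was present in 27.9% of subunit promoters, 12.2% of all and 4.17% of the muscle marker promoters, and AAGGTCA in 7.35%, 4.05% and 0. CAGCTG was present in 8.82% of subunit promoters, 12.8% of all and 50% of the muscle marker promoters. CAGCTG and CCGGAA were chosen after the sequences had been seen, and a match is a run of letters, not a site shown to be used.

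Cox6a2 had 216, 295 and 440.2 FPKM in control, 579, 556 and 593 FPKM in CRS, 549, 313 and 467 FPKM in IMQ and 180.2, 190.0 and 179 FPKM in CRS+IMQ. All CRS libraries lay above control and all CRS+IMQ libraries lay below IMQ. Its level was the highest of the 85 nuclear subunit genes in control, CRS and IMQ and the 6th in CRS+IMQ. Mean FPKM was 1.82 times the control mean in CRS and 0.413 times the IMQ mean in CRS+IMQ. The log2 changes were 0.92 ± 0.26 (limma adjusted p = 0.0294) and -1.23 ± 0.21 (adjusted p = 0.00555), and the interaction was -2.15 ± 0.35 (adjusted p = 0.000464).

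Cox7a1 had 42.7, 51.5 and 91.8 FPKM in control, 123, 125 and 141 FPKM in CRS, 93.4, 43.1 and 69.2 FPKM in IMQ and 16.7, 22.0 and 18.0 FPKM in CRS+IMQ. Neither table showed overlap, although the control and the IMQ libraries each differed among themselves by more than 2-fold. Its log2 change was 1.13 ± 0.28 (limma adjusted p = 0.0190) and -1.75 ± 0.28 (adjusted p = 0.00481), and its interaction of -2.88 ± 0.42 (adjusted p = 0.000247) was the lowest of all members.

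Cox8b had 140.3, 152 and 202 FPKM in control, 263, 243 and 277 FPKM in CRS, 242, 172 and 224 FPKM in IMQ and 86.7, 78.2 and 87.9 FPKM in CRS+IMQ. Again CRS lay wholly above control and CRS+IMQ wholly below IMQ. The log2 change was 0.68 ± 0.16 (limma adjusted p = 0.0162) and -1.31 ± 0.14 (adjusted p = 0.00098), and the interaction was -1.99 ± 0.22 (adjusted p = 3.16e-05). In CRS the calls of Cox6a2 and Cox7a1 were lost without control 2 or any 1 of the CRS libraries (adjusted p up to 0.0889 and 0.0666), and that of Cox8b without control 2, CRS 1 or CRS 3 (up to 0.0633). On imiquimod, and for the interaction, all 3 kept their calls whichever library was left out.

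The partners found in most tissues did not share this pattern as a group. Cox6a1 had 269, 265 and 206 FPKM in control, 183, 181 and 203 FPKM in CRS, 205, 273 and 237 FPKM in IMQ and 274, 282 and 269 FPKM in CRS+IMQ. Its CRS libraries lay below control, and its CRS+IMQ libraries overlapped with IMQ 2. The changes, -0.37 ± 0.14 (limma adjusted p = 0.0724) and 0.21 ± 0.11 (adjusted p = 0.193), were not called. The interaction of 0.59 ± 0.18 was (adjusted p = 0.0213), but it was lost without CRS 2 or control 2 and was 0.18 under quantile normalization (adjusted p = 0.374).

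Cox8a had 237, 247 and 219.7 FPKM in control, 208, 196 and 212 FPKM in CRS, 234, 299 and 275 FPKM in IMQ and 277, 283 and 269 FPKM in CRS+IMQ. Its log2 changes of -0.19 (limma adjusted p = 0.173) and 0.04 (adjusted p = 0.774) were not called, and both turned sign under quantile normalization, to 0.08 and -0.15. Cox7a2 went the way of the muscle forms at a smaller size: it rose by 0.35 ± 0.10 in CRS (limma adjusted p = 0.0290) and fell by 0.29 ± 0.06 in CRS+IMQ (adjusted p = 0.0161). Its fall was lost without IMQ 3 or any of the CRS+IMQ libraries, and its rise without any 1 library other than control 3.

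**Figure D2:**
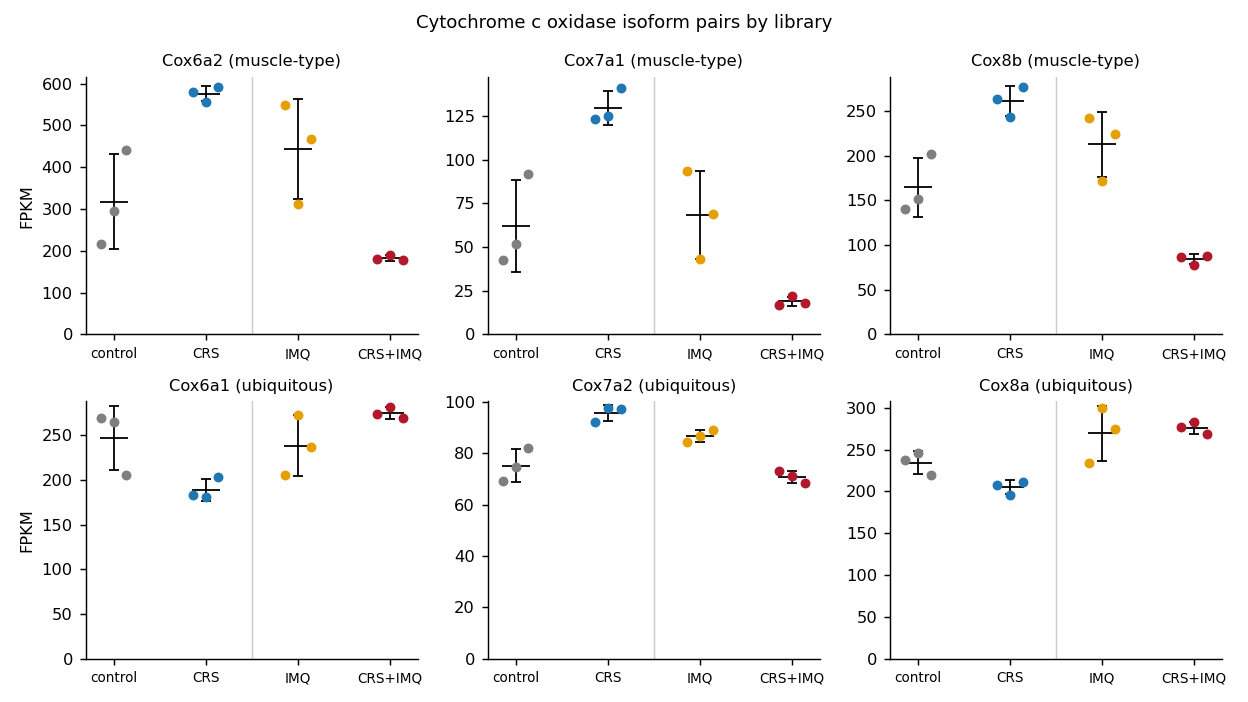
FPKM by library of the muscle forms Cox6a2, Cox7a1 and Cox8b (top) and of their partners Cox6a1, Cox7a2 and Cox8a (bottom); points are libraries, bars are means with SD (n = 3), and a grey line divides the 2 deposited tables. The muscle forms are highest in CRS and lowest in CRS+IMQ, while Cox6a1 is lowest in CRS at 189 FPKM and highest in CRS+IMQ at 275 FPKM.

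Ratios within a library do not depend on how that library was scaled. The muscle forms made up 48.7% ± 9.38 (SD, n = 3) of the summed FPKM of the 3 pairs in control, 66.4% ± 0.294 in CRS, 54.4% ± 9.25 in IMQ and 31.5% ± 0.375 in CRS+IMQ. For Cox6a2 among Cox6a2 and Cox6a1 the shares were 55.1% ± 12, 75.3% ± 0.772, 64.2% ± 9.88 and 40.0% ± 0.285 in that order of groups. The log2 ratio of muscle form to partner differed by 1.29 and -1.45 for this pair, by 0.78 and -1.46 for Cox7a1 over Cox7a2, and by 0.87 and -1.36 for Cox8b over Cox8a, in CRS against control and in CRS+IMQ against IMQ. In all 6 tests the libraries of the groups did not overlap and the exact two-sided permutation p was 0.1, the smallest that 3 against 3 allows (adjusted p over the 6 tests 0.1).

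Outside these pairs, Ndufa4l2 (ENSMUSG00000040280, chr10:127514967-127517154) was the exception among all members. It is a paralog of the complex IV subunit Ndufa4 and is known as a target of hypoxia-inducible factor. It had 233, 233 and 119 FPKM in control, 22.6, 20.8 and 22.5 FPKM in CRS, 31.2, 33.9 and 33.3 FPKM in IMQ and 66.0, 66.5 and 61.8 FPKM in CRS+IMQ. Every CRS library lay far below the lowest control library, and every CRS+IMQ library lay above IMQ at close to the same level as its group. Among the nuclear subunit genes its level ranked 9th of 85 in control, 76th in CRS, 68th in IMQ and 37th in CRS+IMQ.

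The control mean of Ndufa4l2 was 8.88 times the CRS mean, and the CRS+IMQ mean was 1.97 times the IMQ mean. Its log2 changes, -3.03 ± 0.27 (limma adjusted p = 0.000512) and 0.96 ± 0.07 (adjusted p = 0.000211), and its interaction of 3.99 ± 0.30 (adjusted p = 1.85e-06) were called in every fit that left out 1 library. Ndufa4 itself, a subunit of complex IV despite its name, was not called: its log2 changes were 0.14 (limma adjusted p = 0.541) and -0.48 (adjusted p = 0.122), and its libraries overlapped in both tables. The longest stretch shared by the transcripts of Ndufa4l2 and Ndufa4 was 28 bases.

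Cox4i2, the oxygen-sensitive form of subunit 4 best known from lung, was low throughout. It had 3.07, 2.80 and 3.56 FPKM in control, 7.20, 4.54 and 5.89 FPKM in CRS, 5.74, 8.49 and 7.76 FPKM in IMQ and 9.65, 10.6 and 7.75 FPKM in CRS+IMQ. It rose in CRS by 0.72 ± 0.16 (limma adjusted p = 0.0133) without overlap, and its overlapping groups on imiquimod gave 0.32 ± 0.17 (adjusted p = 0.192). Cox4i1, the common form, had a mean of 239 FPKM in control and was not called (0.09 and -0.45, limma adjusted p = 0.801 and 0.0525).

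Cox6b2, the testis form of subunit 6B, had 3.57, 3.37 and 2.26 FPKM in control, 6.95, 3.60 and 7.13 FPKM in CRS, 4.61, 10.9 and 5.27 FPKM in IMQ and 2.01, 2.07 and 1.53 FPKM in CRS+IMQ. It fell by 1.39 ± 0.29 on imiquimod (limma adjusted p = 0.0133, but 0.0523 without CRS+IMQ 3), and its 0.73 ± 0.26 in CRS was not called (adjusted p = 0.0605). Cox6b1, the common form and the most abundant nuclear subunit in CRS+IMQ, lay between 250.1 and 300.5 FPKM in all 12 libraries, with log2 changes of 0.13 (limma adjusted p = 0.379) and -0.01 (adjusted p = 0.942). The testis forms Cox7b2 and Cox8c were listed at 0 in every library, while Cox7b, the common form, rose in CRS by 0.59 (limma adjusted p = 0.0160) and was not called on imiquimod (-0.20, adjusted p = 0.251).

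**Figure D3:**
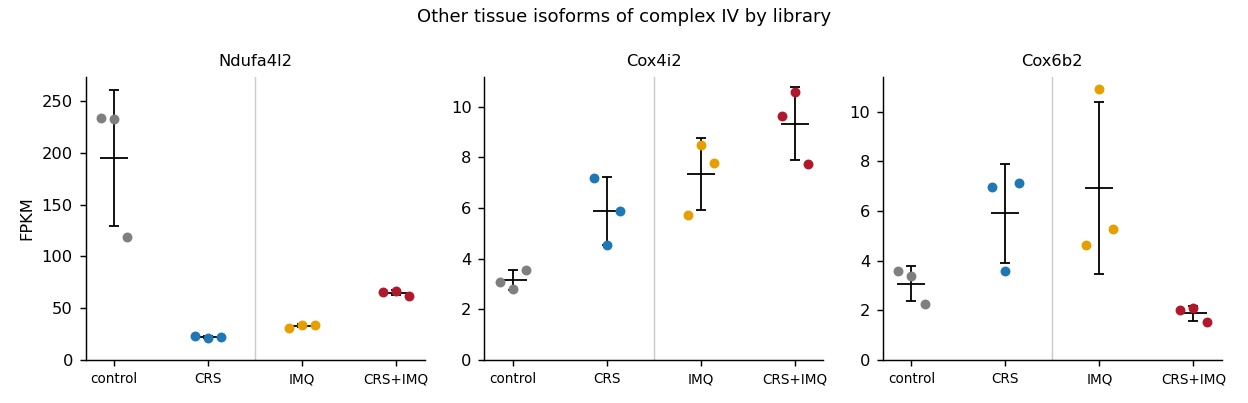
FPKM by library of Ndufa4l2, Cox4i2 and Cox6b2; points are libraries and bars are means with SD (n = 3). Ndufa4l2 stands at a mean of 195 FPKM in control and 22.0 FPKM in CRS, and at 32.8 FPKM in IMQ and 64.8 FPKM in CRS+IMQ.

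Complex V, the ATP synthase, rose in 12 of 17 tested genes in CRS and fell in 14 of 17 in CRS+IMQ, and 16 passed the interaction test downward, with medians of 0.45, -0.44 and -0.87. Of the 5 subunits of the catalytic F1 head, 3 rose and all 5 fell. Atp5a1, the alpha subunit of the head, had 217, 247 and 302 FPKM in control, 373, 384 and 390.1 FPKM in CRS, 329.9, 279 and 313 FPKM in IMQ and 201, 197 and 202 FPKM in CRS+IMQ. Its groups did not overlap, and it changed by 0.59 ± 0.14 (limma adjusted p = 0.0183) and -0.61 ± 0.08 (adjusted p = 0.00251). Atp5d, the delta subunit of the central stalk, was not called in CRS (0.14, limma adjusted p = 0.254) and fell by 0.44 on imiquimod (adjusted p = 0.00259).

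Subunit c, which forms the rotating ring in the membrane, is made from 3 genes that encode the same mature protein. In CRS only Atp5g1 of the 3 was called, and in CRS+IMQ all 3 fell. Atp5g1 (ENSMUSG00000006057, chr11:96068852-96075670) had 27.3, 28.8 and 38.0 FPKM in control, 61.3, 61.8 and 68.2 FPKM in CRS, 51.5, 39.4 and 47.4 FPKM in IMQ and 29.6, 28.6 and 27.2 FPKM in CRS+IMQ. The control and CRS+IMQ libraries were the low ones, and no groups of a table overlapped.

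Atp5g1 rose by 1.01 ± 0.14 (limma adjusted p = 0.00234), or 2.03 times the control mean, and fell by 0.67 ± 0.11 (adjusted p = 0.0054), and both calls held in every fit that left out 1 library. Atp5g2, the most abundant of the 3 in control, changed by 0.16 (limma adjusted p = 0.202) and -0.34 (adjusted p = 0.0104). These 2 genes share 50-base stretches with copies, so their levels carry that uncertainty. Over the pooled transcripts of each gene it was 6.86% with Gm10039 for Atp5g1, and 36.7% with Gm10175 and 24.2% with Gm10231 for Atp5g2. Gm10039 stood above Atp5g1 itself, at 73.5, 84.5 and 102.5 FPKM in control and 171.0, 160.8 and 166.2 FPKM in CRS. Atp5md, a small subunit that helps ATP synthase form dimers, rose by 0.49 (limma adjusted p = 0.00908) and fell by 0.39 (adjusted p = 0.0138), whereas Atp5k, subunit e, passed none of the tests.

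The 13 mitochondrially encoded genes took 11.8% of summed FPKM on average in control, 19.0% in CRS, 14.9% in IMQ and 12.8% in CRS+IMQ. In CRS 8 of 13 rose, with a median of 0.74, the highest of any complex. In CRS+IMQ none was called by limma, with a median of -0.27, while 4 of 13 had an unadjusted p under 0.05 and 0 passed the q-value of the authors' deposited table. The interaction was called lower for 10 of 13, with a median of -1.03. Without IMQ 2, the lowest IMQ library for all 13 genes, 8 of them fell in CRS+IMQ, where 2836 of 13981 genes tested did.

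mt-Nd1, a membrane subunit of complex I at the ubiquinone site, had 3093, 3829 and 5012 FPKM in control, 7599, 7744 and 7203 FPKM in CRS, 6040.0, 4300.0 and 5122 FPKM in IMQ and 4487, 4589 and 4569 FPKM in CRS+IMQ. The CRS libraries stood apart from control, and the CRS+IMQ libraries fell inside the range of IMQ. Its changes were 0.95 ± 0.22 (limma adjusted p = 0.0158) and -0.17 (adjusted p = 0.381), with an interaction of -1.11 (adjusted p = 0.00388). mt-Nd4, a proton-pumping subunit of complex I, had 1952, 2562 and 3413 FPKM in control, 5076, 5160.3 and 4323 FPKM in CRS, 4359, 2922 and 3629 FPKM in IMQ and 2556, 2618 and 2692 FPKM in CRS+IMQ. Here the CRS+IMQ libraries lay below all IMQ libraries, but the change of -0.45 missed the threshold (limma adjusted p = 0.0647), and the interaction was -1.36 (adjusted p = 0.0026).

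mt-Co1, the catalytic core of complex IV, was the most abundant of all members: 7523, 9457 and 11569 FPKM in control, 15845, 16238 and 14857 FPKM in CRS, 15459.6, 11843 and 13811 FPKM in IMQ and 10034, 10256 and 10979 FPKM in CRS+IMQ. It rose by 0.74 ± 0.22 (limma adjusted p = 0.0383) but by quantile normalization, which sets the highest ranks equal in every library, its change was -0.25 and its interaction turned from -1.13 to 0.20. Under that scaling 1 of the 13 genes, mt-Nd3, was called higher in CRS, 4 were called lower in CRS+IMQ (mt-Cytb, mt-Nd2, mt-Nd3 and mt-Nd4), and the medians were 0.32 and, for the interaction, -0.31. Each library was also rescaled to its genes whose names do not begin with mt-, a total that keeps the nuclear copies described below. Then 8 of the 13 were called higher in CRS, 4 lower in CRS+IMQ and 10 lower in the interaction. mt-Nd3, a small subunit of complex I, was called in CRS in every fit that left out 1 library (0.74 ± 0.15, limma adjusted p = 0.0102), while mt-Nd1, mt-Nd4, mt-Co2 and mt-Co3 were lost without control 2 or any 1 of the CRS libraries.

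The log2 ratio of summed mitochondrial to summed nuclear subunit FPKM was 2.30, 2.77 and 2.89 in control, 3.16, 3.20 and 2.94 in CRS, 3.04, 2.68 and 2.92 in IMQ and 3.06, 3.07 and 3.24 in CRS+IMQ. Stressed libraries were the higher ones in both tables, without overlap, by 0.445 and by 0.243. The exact two-sided permutation p was 0.1 for each, the smallest that 3 against 3 allows. Summed mitochondrially encoded RNA stood at 1.72 times the control level in CRS, where the nuclear subunits stood at 1.29 times. In CRS+IMQ it stood at 0.867 times the IMQ level, where the nuclear subunits stood at 0.740 times.

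Several mitochondrially encoded genes could not be counted apart from copies in the nuclear genome. A block of unprocessed pseudogenes on chr1:24611535-24616197 holds Gm10925, which contains 99.5% of the 50-base stretches of mt-Atp6, Gm28661 (99.5% of mt-Co2), Gm28437 (99.9% of mt-Co3), Gm28438 (98.0% of mt-Nd3), Gm10222 (98.8% of mt-Nd4l), Gm28439 (62.2% of mt-Nd4) and Gm29216 (28.7% of mt-Co1). mt-Atp6, the proton channel subunit of ATP synthase, was listed at 1025, 5881 and 6458 FPKM in control, 8687, 9239.5 and 7833 FPKM in CRS, 8191, 1491 and 7249 FPKM in IMQ and 6333, 6382 and 7853 FPKM in CRS+IMQ. Gm10925 stood at 3387, 3676 and 6753 FPKM in control and at 8189, 5446 and 7309 FPKM in IMQ. Control 1 and IMQ 2 were thus very low for the gene and not for the copy. mt-Atp6 was not called in either comparison (1.34 ± 0.71 and 0.61 ± 0.65, limma adjusted p = 0.174 and 0.495).

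When each gene was summed with the copies that held over 25% of its 50-base stretches, 8 of 13 were called higher in CRS, 1 (mt-Co1) lower in CRS+IMQ and 10 lower in the interaction, with medians of 0.87, -0.30 and -1.15. mt-Cytb, mt-Nd1, mt-Nd6 and mt-Atp8 share no such stretch with another gene. Of these, mt-Cytb, the cytochrome of complex III, rose in CRS by 0.89 (limma adjusted p = 0.0367). mt-Nd6 and mt-Atp8 were not called at 0.66 (limma adjusted p = 0.0706) and 0.76 (adjusted p = 0.0874).

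**Figure D4:**
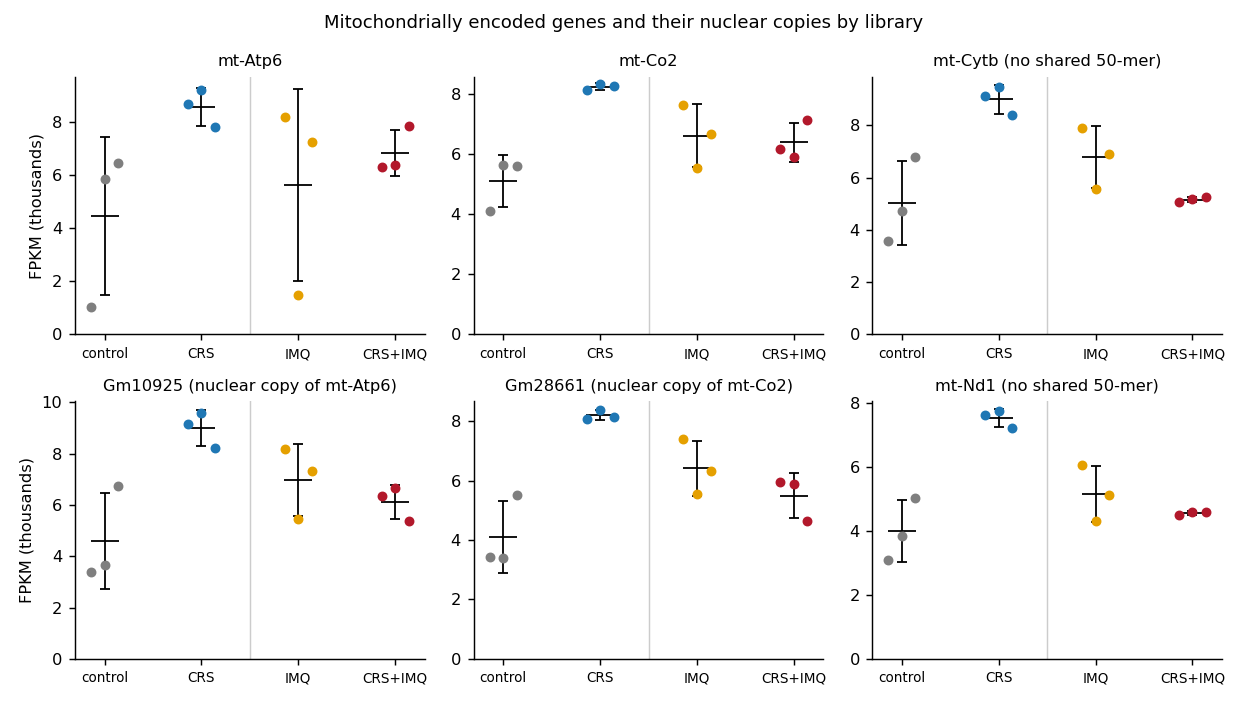
FPKM by library (axis in units of 1000 FPKM) of mt-Atp6, mt-Co2, mt-Cytb and mt-Nd1 and of the nuclear copies Gm10925 (of mt-Atp6) and Gm28661 (of mt-Co2). mt-Atp6 drops to 1025 FPKM in control 1 and 1491 FPKM in IMQ 2, where Gm10925 reads 3387 and 5446 FPKM.

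The remaining members were Cox7a2l and the gene copies, which are annotated as processed pseudogenes. Cox7a2l was not called in CRS (-0.33, limma adjusted p = 0.192) and fell in CRS+IMQ by 0.45 (adjusted p = 0.0363). Of the gene copies tested, Cox6c2 rose in CRS, Ndufb4c fell in CRS+IMQ and Ndufs6b passed no test. All 50-base stretches of Ndufb4c also occur in Ndufb4, so its values cannot be told apart from those of the parent gene. Of those of Cox6c2, 52.7% occur in Cox6c, so its values may in part hold reads of Cox6c, which itself passed no test.

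Skeletal muscle markers moved the same way as the respiratory chain. The summed FPKM of 30 marker genes, among them the actin Acta1, the creatine kinase Ckm and the troponins, was 16421, 24571 and 37160 in control, 55754, 55984 and 57334 in CRS, 40777, 27881 and 35952 in IMQ and 16304, 16392 and 16167 in CRS+IMQ. Control 3 and IMQ 1 were the highest and control 1 and IMQ 2 the lowest of their groups, as for most members. The ratio of means was 2.16 in CRS and 0.467 in CRS+IMQ, against 1.29 and 0.740 for the nuclear subunits and 1.78 and 0.395 for the summed Cox6a2, Cox7a1 and Cox8b. Of the 29 markers tested 18 rose and 1 (Myh4) fell in CRS, against 15.3% and 28.4% of all genes. In CRS+IMQ 2 (Tnni1 and Tnnc1) rose and 22 fell, against 18.7% and 18.2%. By interaction 25 were lower, against 21.2%. The medians were 1.17, -1.07 and -2.13, and Myh7 was near 0. The part of the muscle markers in the changes of the respiratory chain genes was not tested.

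**Figure D5:**
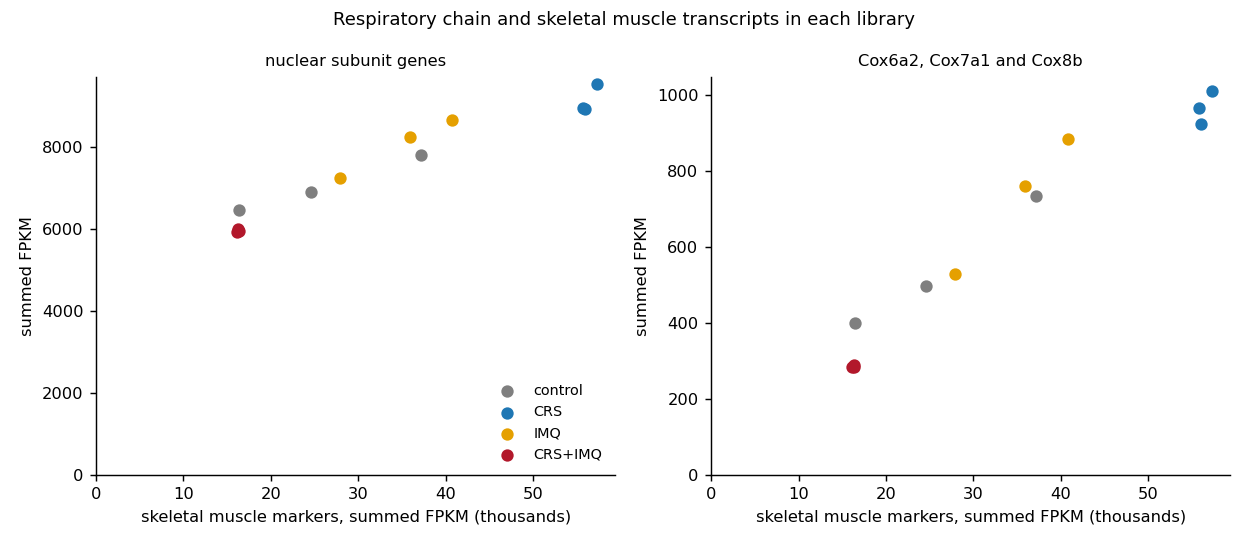
Summed FPKM of the 85 nuclear subunit genes (left) and of Cox6a2, Cox7a1 and Cox8b (right) against the summed FPKM of 30 skeletal muscle markers, 1 point per library (12 libraries). Both sums are lowest in CRS+IMQ, where the markers lie between 16167 and 16392, and highest in CRS, where they lie between 55754 and 57334.

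Markers of other cells also differed between the groups, and their part was not tested either. Summed suprabasal keratinocyte markers averaged 5989 FPKM in control, 351 in CRS, 3833 in IMQ and 3920 in CRS+IMQ, and basal keratinocyte markers 5475, 3067, 4312 and 10648. Leukocyte markers averaged 1270, 197, 360.0 and 4438 FPKM, fibroblast markers 746, 890.5, 448 and 2039, white adipocyte markers 2067, 1416, 654 and 1286, and growing-phase hair follicle markers 6.15, 217, 546 and 8.91. The hair follicle sum varied widely in IMQ, at 42.6, 1117 and 478 FPKM, with IMQ 2 the highest. Single markers could differ from their sum. In CRS, 1 of 6 fibroblast markers was called higher and 3 lower, and 2 of 7 leukocyte markers higher and 5 lower. Over all genes 15.3% were higher and 28.4% lower. In CRS+IMQ, 2 of 6 basal keratinocyte markers were higher and 2 lower (median 0.01), while all 7 leukocyte and all 6 fibroblast markers were higher. Over all genes 18.7% were higher and 18.2% lower. Brown adipocyte markers summed to 93.0, 87.6, 100 and 18.5 FPKM, but Ucp1, the defining brown fat gene, stayed at or below 0.161 FPKM in every library. Cardiac markers summed to at most 14.1 FPKM on average in any group.

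Other mitochondrial pathways were counted beside the same shares of all genes, 15.3% higher and 28.4% lower in CRS and 18.7% higher and 18.2% lower in CRS+IMQ. Of 13 genes of the tricarboxylic acid cycle 7 rose in CRS and 11 fell in CRS+IMQ, with medians of 0.62 and -0.60. Idh3a, a subunit of NAD-dependent isocitrate dehydrogenase, rose by 0.97 (limma adjusted p = 0.00687) and fell by 0.78 (adjusted p = 0.00229), while Cs, citrate synthase, changed by 0.18 (limma adjusted p = 0.223) and fell by 0.81 (adjusted p = 0.00029). Of 14 genes of fatty acid oxidation 3 rose and 1 fell in CRS, near the share of all genes for a rise, and 1 rose and 8 fell in CRS+IMQ. Cpt1b, the muscle form of the enzyme that admits long-chain fatty acids to mitochondria, rose by 0.96 (limma adjusted p = 0.0311) and fell by 1.0 (adjusted p = 0.000648). Cpt1a, the liver form, went the other way, by -0.55 (limma adjusted p = 0.0145) and 0.44 (adjusted p = 0.0209), with an interaction of 0.99.

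The ADP/ATP carriers split in the same manner. Slc25a4, the heart and muscle form, had 252, 326 and 460.4 FPKM in control, 722, 709 and 773 FPKM in CRS, 526, 333 and 450.5 FPKM in IMQ and 199.6, 195 and 192 FPKM in CRS+IMQ. It rose by 1.13 (limma adjusted p = 0.0095) and fell by 1.13 (adjusted p = 0.00366), with no overlap in either table. Slc25a5, the form of proliferating cells, fell in CRS by 0.42 (limma adjusted p = 0.0248) and was not called on imiquimod (0.29, adjusted p = 0.224). Across the list of 16 carriers, channels and import genes, 10 rose and 1 fell in CRS, and 9 fell in CRS+IMQ; Cycs, cytochrome c, rose by 0.79 (limma adjusted p = 0.0111) and fell by 0.59 (adjusted p = 0.00303).

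Of 15 tested genes of mitochondrial biogenesis and transcription 4 rose in CRS, and 4 of 13 fell in CRS+IMQ, with medians of 0.05 and -0.37, against the 15.3% and 18.2% of all genes called in these directions. Ppargc1a, a coactivator of mitochondrial genes, rose in CRS by 0.75 (limma adjusted p = 0.0202) from a low level. Tfam, which packages mitochondrial DNA, changed by 0.14 (limma adjusted p = 0.21) and fell by 0.39 (adjusted p = 0.0371). Of 31 assembly factors of complexes II to V, 6 rose and 1 fell in CRS, and 11 of 30 fell in CRS+IMQ. Among the 14 tested complex I assembly genes of the wider list, Ecsit rose by 0.80 (limma adjusted p = 0.00212) and fell by 0.68 (adjusted p = 0.00058), while Acad9, which is also an acyl-CoA dehydrogenase, fell in both, by 0.66 (limma adjusted p = 0.00704) and by 0.66 (adjusted p = 0.00329), with an interaction of 0.01.

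The genes whose levels ran most closely with the summed muscle forms of complex IV were found among 7444 genes outside the rule with a mean of at least 5 FPKM. By Pearson r of log2(FPKM + 1) over the 12 libraries, which fall into 4 groups from 2 tables, they were Nipsnap2 (0.997), Fitm1 (0.994), Rpl3l (0.992), Acadvl (0.989) and Slc25a11 (0.987). Among the members the closest were Uqcrfs1 (0.993), Ndufb9 (0.990) and Sdhb (0.985), and the farthest were Cox6a1 (-0.888), Cox8a (-0.715) and Ndufa4l2 (-0.557). These values describe the ordering of 12 libraries in which whole groups differ, and no test was made on them.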

How the data were processed

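RNA of mouse dorsal skin was sequenced in 12 libraries on a NovaSeq instrument, per the labels. The measure used was FPKM as the authors deposited it, with a column for each library, spread over 2 tables in which 0.0001 stands for 0. Log2 fold changes and q-values by the authors are in the same tables, per the file headers; no fold change of theirs is printed and their q-value was only counted. The submitters' processing notes name StringTie, edgeR, limma and the build mm10 without versions; for the aligner, not given in the sources used here.

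Tables were joined by gene ID. Log2(FPKM + 1) was tested in R 4.3.3 with limma 3.58.1 and statmod 1.5.0 (trend and robust empirical Bayes). Genes entered if they reached 1 FPKM in 3 or more of the fitted libraries, adjustment was by Benjamini-Hochberg over all of them, and calls were made below 0.05. CRS against control and CRS+IMQ against IMQ used their own 6 libraries, and the interaction used all 12. A log2 change on this scale understates that of low genes. Changes are relative to all RNA in a library, and depth is unknown. Ratios were tested by exact permutation, and levels across tables were set side by side only. Figures and tables were made with pandas 2.3.3, numpy 2.4.6, scipy 1.17.1 and matplotlib 3.10.9, and the fit was tested on simulated data. Shared 50-base stretches were counted between transcripts of the reference annotation.

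The members, lists and markers were chosen with earlier results of these data known. Genes were named by a rule. It took the tissue isoforms and Sdh genes, and in each complex the members with the smallest p and the most extreme change per test. It also took up to 2 genes with the smallest p per other list and comparison, and the 5 genes most alike in pattern. Ppargc1a, Tfam, Cycs, Slc25a5, Ndufa3, Ndufb10, mt-Cytb and others were named outside this rule, partly chosen after their values were seen. Replicate numbers recur in the titles, but libraries with the same number did not deviate together (r from -0.055 to 0.006), so they were not paired. Alternatives were another pseudocount, filter, scaling, the replicate number as a block, each library left out, each stressed group as 1 sample, and mitochondrial genes summed with nuclear copies.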

Additional observations from a re-analysis of the deposited data

Results flagged for a closer look

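The change with stress differed between skin with and without imiquimod, by limma's interaction test (adjusted p below 0.05), for many of the genes named above, 25 of which are given here. The values are the log2 change in CRS+IMQ against IMQ minus that in CRS against control. Among complex I genes it was -1.20 for Ndufs4, -1.28 for Ndufs7, -1.32 for Ndufv1 and -1.30 for the assembly factor Ndufaf5. In complex II it was -1.11 for Sdha, -1.44 for Sdhb, -0.92 for Sdhc and -0.77 for Sdhd. In complex III it was -1.12 for Uqcrc1, -1.13 for Uqcrfs1 and -0.42 for Uqcrh.

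In complex IV the lowest values were -2.88 for Cox7a1, -2.15 for Cox6a2, -2.12 for Cox6b2 and -1.99 for Cox8b, next to -0.79 for Cox7b and -0.63 for Cox7a2. Only Cox6a1, at 0.59, and Ndufa4l2, at 3.99, were above 0 among the 87 of 107 members that passed. In complex V the value was -1.21 for Atp5a1, -1.68 for Atp5g1 and -0.51 for Atp5g2. Of the mitochondrially encoded genes mt-Co1 had -1.13, mt-Nd2 -1.37 and mt-Nd4 -1.36. Skeletal muscle markers differed in the same direction, with a median interaction of -2.13, and their part in these differences was not tested.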

How the results depend on the processing

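With 1 library left out, all genes called higher in CRS ranged from 1262 to 2535 and all genes called lower in CRS+IMQ from 1448 to 3469. No called member changed sign when 1 library was left out. Leaving out each library moved the counts to 16 to 82 higher and 1 to 3 lower in CRS against control, 1 to 2 higher and 35 to 82 lower in CRS+IMQ against IMQ, and 1 to 2 higher and 81 to 94 lower for the interaction; the ratio differences ran from 0.266 to 0.563 and 0.145 to 0.322 (mitochondrial over nuclear), 0.98 to 1.68 and -1.78 to -1.17 (Cox6a2 over Cox6a1), 0.62 to 1.04 and -1.75 to -1.19 (Cox7a1 over Cox7a2), and 0.75 to 1.07 and -1.58 to -1.16 (Cox8b over Cox8a). With each stressed group as 1 sample the counts were 0 higher in CRS, 0 lower in CRS+IMQ, and 1 higher and 13 lower for the interaction, from fewer samples. The replicate block, which the data give no ground for, left 40 higher in CRS, 50 lower in CRS+IMQ and 83 lower for the interaction. Of all genes it called 1544, 1782 and 2996 in these directions. A fit on all 12 libraries called 2 lower in CRS, against 4001 of all genes. Median-ratio scaling called 2 higher and 39 lower in CRS+IMQ, against 3006 and 2150 of all genes.

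Quantile normalization moved the medians in CRS to 0.66 (complex I), 0.69 (III), 0.71 (IV), 0.67 (V) and 0.32 (mitochondrially encoded), and those of the interaction to -1.11, -1.32, -1.22, -0.94, -1.12 (complexes I to V) and -0.31, with 1 member higher; median-ratio scaling gave 0.57 (IV) and 0.55 (V) in CRS. The all-gene split in CRS went from 2131 higher and 3955 lower to 3710 and 2886 under quantile normalization (median from -0.09 to 0.08) and to 2776 and 3375 under median-ratio scaling, and that of the interaction from 4172 and 3153 to 3519 and 4622 (median from 0.04 to -0.13). mt-Co1 turned sign under quantile normalization, to -0.25 in CRS and 0.20 for the interaction. The cause of these shifts was not tested. Depth and the number of animals behind the libraries are not known, so small changes of low genes could not be resolved.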
